A study of Macaca mulatta with 12 samples.

Results

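The neural tissues of the rhesus macaque (Macaca mulatta) were represented by 2 of the 12 small RNA profiles, 1 of the occipital lobe, the visual part of the cerebral cortex, and 1 of the spinal cord. They were chosen by their tissue labels and compared with the other 10 profiles, which came from kidney, large intestine, small intestine and muscle (2 profiles each) and from liver and lung (1 profile each). All tissues came from 2 animals, which were wild-type, 36 months old and untreated. The labels do not tie the profiles to the animals, so profiles of 1 animal could not be blocked and were treated as independent in every test. Because each neural tissue was sequenced in a single library, the spread of the neural pair is a difference between 2 tissues. The main fits used 7 groups, so their p-values measure only the spread within the neural pair and within the 4 tissues with 2 profiles. This leaves 5 residual degrees of freedom. Differences among the other tissues do not enter that spread, and liver and lung add nothing to it. No p-value speaks beyond these 12 profiles.

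MicroRNAs (miRNAs) are short RNAs cut from hairpin precursors (pre-miRNAs). Each hairpin can give a mature miRNA from its 5′ arm (5p) and from its 3′ arm (3p), and the mature miRNA finds target mRNAs mainly through its seed, bases 2 to 8. The nervous system is known for miRNAs that few other tissues make. miR-124 is the classical neuronal miRNA, miR-9 is made by neural progenitors and neurons, and miR-219 and miR-338 mark oligodendrocytes, the myelin-forming glia. In whole tissue, fewer cells of a type and less RNA per cell cannot be told apart.

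The mature sequences of the neural markers are shown because the neural profiles were checked by them, with the seed in capitals:
mml-miR-9-5p: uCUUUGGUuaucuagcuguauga
mml-miR-9-3p: aUAAAGCUagauaaccgaaagua
mml-miR-124a-3p: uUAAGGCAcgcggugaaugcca
mml-miR-219-5p: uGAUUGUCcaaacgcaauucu
mml-miR-219-2-3p: aGAAUUGUggcuggacaucugu
mml-miR-9-5p was shared by 3 hairpins (mir-9-1, mir-9-2 and mir-9-3), mml-miR-9-3p by 2 (mir-9-1 and mir-9-2), mml-miR-124a-3p by 3 and mml-miR-219-5p by 2, so their reads could not be assigned to a locus.

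The labels of the neural profiles held against these markers. Levels are given in RPTM, reads per 10000000 valid reads of a profile, where 1 read of the spinal cord is worth about 0.42. mml-miR-9-5p was at 383871 RPTM in the occipital lobe and 261318 in the spinal cord, and at 169 to 988 (median 264) in the 10 other profiles. mml-miR-124a-3p was at 10508 and 3278 RPTM, against 0.87 to 7.26 elsewhere. mml-miR-219-2-3p stood at 2329 RPTM in the occipital lobe and at 18456 in the spinal cord, with 2.05 to 5.65 in the other tissues. For these 3 miRNAs the groups were far apart, and the neural pair itself was unequal, with miR-124a higher in cortex and miR-219 higher in cord. mml-miR-9-3p was at 688 and 855 RPTM against at most 2.95, and mml-miR-219-5p at 121 and 943 against at most 1.75. The opposite arm of miR-124a was nearly absent: mml-miR-124a-5p had 4 reads in the occipital lobe and 0 in each of the other 11 profiles, and mml-miR-9-3-3p had 0 reads in all 12. mml-miR-9-5p had 11321 reads in the 10 other profiles together, mml-miR-124a-3p 92 and mml-miR-219-2-3p 79, with reads of each in all 10, and the origin of these reads was not tested.

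The differences of the markers were among the largest of the whole comparison. Fold changes are neural minus the mean of the 6 other tissue groups on the log2 scale, from edgeR's quasi-likelihood test with TMM factors, which scale the profiles to each other by their miRNA counts, and with p-values adjusted by the Benjamini-Hochberg method over 371 tested miRNAs. They were 8.75 ± 0.38 (SE) for mml-miR-9-5p (adjusted p = 5e-09), 10.24 ± 0.66 for mml-miR-9-3p (1.3e-07), 9.77 ± 0.53 for mml-miR-124a-3p (1.8e-08), 8.50 ± 0.72 for mml-miR-219-5p (6.3e-07) and 10.22 ± 0.55 for mml-miR-219-2-3p (1.8e-08), with n = 2 against 10 profiles in this edgeR fit.

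Over all tested miRNAs, 162 of 371 (43.7%) were higher in the neural tissues and 90 (24.3%) were lower at an adjusted p under 0.05 in edgeR. The split depended on the scaling. When the counts were divided by the valid reads of each profile instead of using TMM factors, every miRNA moved up by a median of 1.15 on the log2 scale, and 232 (62.5%) were higher and 46 (12.4%) lower. The higher calls thus made up 64.3% of all calls with TMM factors and 83.5% with valid reads. All 162 higher calls were kept under valid reads, 46 of the 90 lower calls were kept, the other 44 lost their call, and no call changed its direction. When the 10 other profiles were fitted as a single group, so that differences among their tissues entered the spread, 109 were higher and 53 lower. The median fold change of all tested miRNAs was 0.89 with TMM factors and 1.97 with valid reads, and the list medians below are to be read beside these values.

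The neural profiles also stood apart in their raw levels. In 162 of 371 miRNAs (43.7%) both neural profiles were above all 10 others in RPTM, and 139 of these were also called higher. In 21 miRNAs (5.66%) both were below all others, and all 21 were called lower. Of the 162 miRNAs called higher, 35 exceeded 5 on the log2 scale, while 11 of the lower ones were under -5. In the other tissues, the highest level of a miRNA called higher was found in liver for 49 miRNAs and in lung for 40, against 18 in each muscle profile and 12 or fewer in each remaining profile. The same count over all tested miRNAs was not made. These levels carry no TMM factor, and liver and lung had the largest factors of the other profiles, 1.72 and 1.86 against 0.56 to 0.98. The part of this scaling in the count was not tested. The median GC content was 48.9% in the higher miRNAs, 45.5% in the lower ones and 47.6% in all tested.

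**Figure D1:**
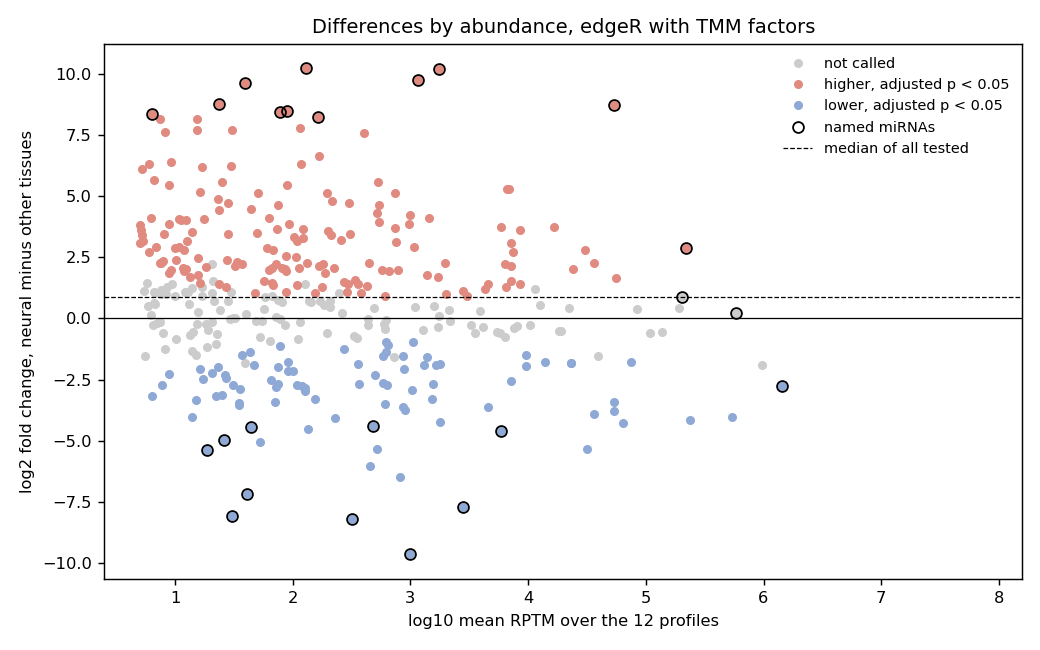
Difference between neural and other tissues (y axis, log2 fold change from edgeR with TMM factors) against abundance (x axis, log10 of the mean RPTM over 12 profiles) for the tested miRNAs. The 162 higher miRNAs are red, the 90 lower ones are blue, black rings mark the neural markers, the 10 largest calls per direction with groups that did not overlap and the 5 most abundant neural miRNAs, and the dashed line is the median of all tested miRNAs, 0.89; 5 miRNAs for which the fit gave no usable error are not drawn.

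After the markers, the largest differences belonged to low or moderately abundant miRNAs. mml-miR-129-2-3p was at 1077 RPTM in the occipital lobe and 859 in the spinal cord and at most at 16.2 elsewhere (log2 fold change 8.25 ± 0.45, edgeR adjusted p = 1.8e-08). mml-miR-1224-5p, which lies within VWA5B2 in the RefSeq gene table of the assembly T2T-MMU8v2.0, was at 668 and 248 RPTM against 0 to 7.82 in the other tissues (8.46 ± 0.71, edgeR adjusted p = 1.1e-06). For both miRNAs the groups did not overlap.

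The remaining members of the top 10 came from the gene of the serotonin receptor HTR2C, within which the same table places mir-1298 and mir-448, and they were far higher in the spinal cord than in the occipital lobe. mml-miR-1298-3p had 4.78 RPTM in the occipital lobe and 463 in the spinal cord, with 3 reads in the 10 other profiles together. The pooled neural level was 1893 times that of the other profiles (95% exact counting interval 646 to 9195). This interval covers counting error only. The pooled level is mainly that of 1 library, since the spinal cord gave 1108 reads and the occipital lobe 11. mml-miR-1298-5p was at 5.65 and 277 RPTM, against at most 0.87 elsewhere. mml-miR-448-3p had 2 reads in the occipital lobe, 180 in the spinal cord and 0 in the other profiles. With a limit of 3 reads over the other profiles its pooled neural level, nearly all from the spinal cord, was at least 308-fold higher. Its call was lost with DESeq2 (adjusted p = 0.077). mir-1911 lies within the same gene and was too rare to be tested: mml-miR-1911-5p had 6 reads and mml-miR-1911-3p had 3 in the spinal cord, and both had 0 in every other profile. Their sequences are:
mml-miR-1298-5p: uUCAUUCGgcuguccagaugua
mml-miR-1298-3p: cAUCUGGGcaacugacugaacu
mml-miR-448-3p: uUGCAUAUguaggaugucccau

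**Figure D2:**
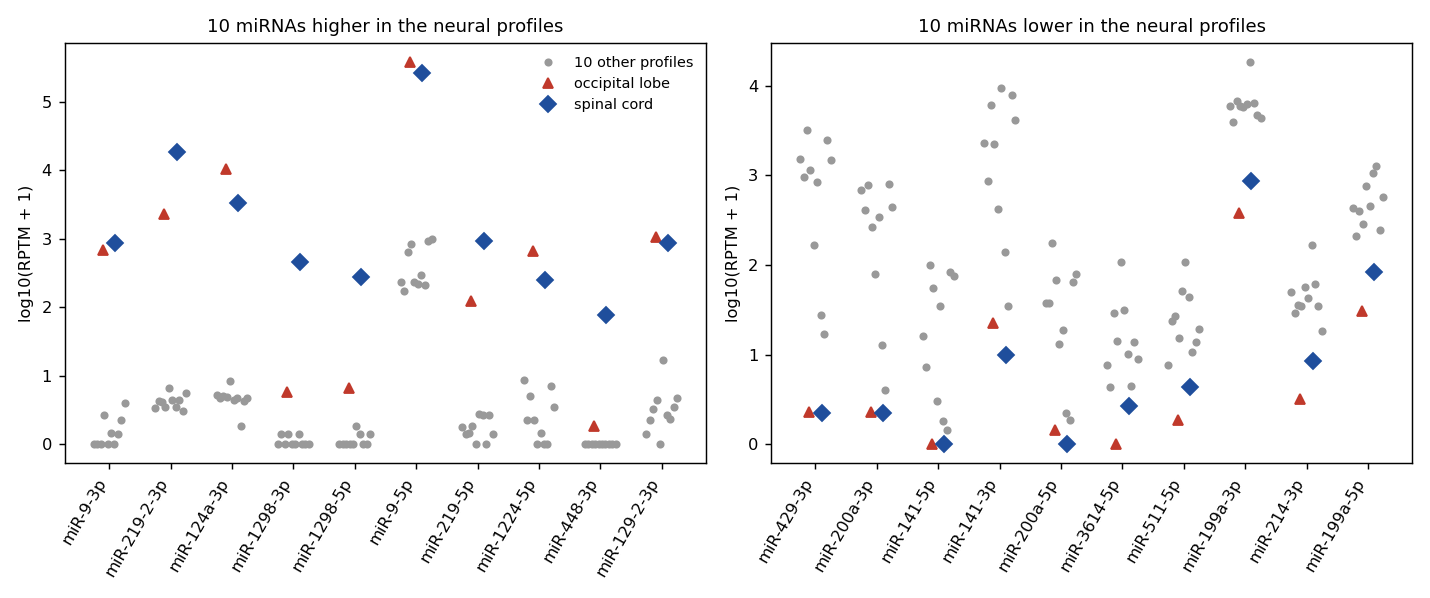
Levels of the 10 miRNAs with the largest higher and lower fold changes among those whose groups did not overlap (y axes, log10 of RPTM plus 1). Grey dots are the 10 other profiles, red triangles the occipital lobe and blue diamonds the spinal cord; mml-miR-9-5p reached 383871 RPTM in the occipital lobe, and mml-miR-141-5p had 0 reads in both neural profiles.

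The neuronal miRNAs were higher throughout. The list held 30 mature miRNAs, of which 28 had a read and 20 passed the abundance filter. All 20 were called higher and lay above all other profiles in both neural tissues (background 43.7%). The filter took the mean over all profiles, so members near 0 elsewhere, such as mml-miR-9-3p, passed only through the neural pair. For these a higher call was nearly fixed. The lists were also chosen with earlier results of these data known, so list counts, here and below, are descriptions and no test. Their median fold change was 5.81 with TMM factors and 6.91 with valid reads. mml-miR-128a-3p, a brain-enriched miRNA, was at 46860 RPTM in the occipital lobe and 23264 in the spinal cord, against 176 to 4019 in the other tissues, where the muscle profiles were highest. mml-miR-128b-3p, which shares reads with it, gave nearly the same values, so the loci could not be told apart and their calls are not independent. Of the members with activity-dependent transcription in neurons, mml-miR-132-3p was at 311 and 420 RPTM against 12.1 to 60.1 (log2 fold change 2.55 ± 0.32, edgeR adjusted p = 2.2e-05) and mml-miR-212-3p at 410 and 565 against 20.6 to 132. mml-miR-138-5p, which acts at dendritic spines, was at 973 and 1933 RPTM, and lung with 362 was the nearest other profile. The smallest separation was that of mml-miR-7-5p, at 12.6 and 25.1 RPTM against at most 12.3.

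The oligodendrocyte miRNAs were higher in both tissues and far higher in the spinal cord than in the occipital lobe. All 4 members had reads, passed the filter and were called higher (background 43.7%), with a median fold change of 6.36. The miR-219 members passed the filter only through the neural pair, so this count has the same limit as the neuronal one. Their summed level was 5358 RPTM in the occipital lobe, 27365 in the spinal cord and at most 581 (lung) elsewhere. mml-miR-338-3p was at 2765 and 7468 RPTM against 24.0 to 560 (4.22 ± 0.45, edgeR adjusted p = 4.7e-06). The summed neuronal list, most of it mml-miR-9-5p, was at 499211 RPTM in the occipital lobe and 323926 in the spinal cord, against 1156 to 8917 elsewhere. Its members did not share 1 order: 13 of the 20 tested were higher in the occipital lobe and 7 in the spinal cord. With 1 library of each tissue this order has no replicate check.

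Among the miRNAs called higher, more were unequal within the neural pair in the same direction. Of these 162 miRNAs, 141 were within 4-fold of each other in the 2 neural profiles. In the spinal cord 20 were over 4-fold higher, and 1, mml-miR-320a-1-3p, was over 4-fold higher in the occipital lobe. The ratios are of RPTM without TMM factors, which were 2.35 in the spinal cord and 1.74 in the occipital lobe. The same count over all tested miRNAs was not made, so these counts have no background. The spinal cord set held miR-219, miR-1298 and miR-448 and also mml-miR-34a-5p, a p53 target, at 81.3 and 616 RPTM, and mml-miR-584-5p at 220 and 1920 RPTM. The highest other values were 72.1 for mml-miR-34a-5p and 86.3 for mml-miR-584-5p, so the occipital lobe alone also exceeded them.

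Imprinted miRNAs of the DLK1-DIO3 region were the largest group that moved together. The miRNAs of this region are expressed from the maternal chromosome, and the region carries a long run of hairpins, many of them active in brain. Of its 88 listed mature miRNAs, 85 had a read, 45 were tested, and 39 of these were called higher and none lower (background 43.7% higher, 24.3% lower); with valid reads 42 were higher. Members low elsewhere passed the filter mainly through the neural pair, such as mml-miR-541-3p (10.4 and 58.1 RPTM in the pair, log2 fold change 6.30). For such members this count has the same limit as the neuronal one. The median fold change of the tested members was 3.09 with TMM factors and 4.29 with valid reads. mml-miR-127-3p was at 22710 RPTM in the occipital lobe and 44681 in the spinal cord, against 855 to 5490 (3.09 ± 0.25, edgeR adjusted p = 3.9e-07). mml-miR-411-5p was at 32770 and 22561 RPTM against 1605 to 10380 (2.15 ± 0.30, edgeR adjusted p = 4e-05). mml-miR-410-3p was at 4585 and 10578 against 94.0 to 930. Liver was the nearest tissue: it held the highest other value for 33 of the 39 miRNAs called higher, and its summed level of 24826 RPTM exceeded the 4468 to 6883 of the remaining profiles, compared with 84504 and 106936 in the neural pair. The 6 tested members without a call were mml-miR-493-5p, mml-miR-493-3p, mml-miR-431-5p, mml-miR-377-3p, mml-miR-376c-3p and mml-miR-1185-3p, with fold changes from -1.51 to 1.13.

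Beside mml-miR-9-5p, the 5 most abundant miRNAs of the neural tissues included 4 that other tissues also make in large amounts:
mml-let-7f-5p: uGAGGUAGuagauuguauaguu
mml-let-7a-5p: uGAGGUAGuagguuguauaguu
mml-miR-181a-5p: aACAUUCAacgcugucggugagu
mml-miR-143-3p: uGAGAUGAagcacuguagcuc
The let-7 miRNAs share the seed GAGGUAG, and they rise with differentiation in many lineages. mml-let-7f-5p was at 1249020 RPTM in the occipital lobe and 895617 in the spinal cord, against 215241 to 1017170 elsewhere, so the groups overlapped and its fold change of 0.21 ± 0.43 was not called with TMM factors (adjusted p = 0.67). With valid reads it was 1.32 and called, and with RLE factors or DESeq2 it was slightly negative. mml-let-7a-5p was at 640084 and 413608 RPTM, above the 71250 to 213567 of the other profiles, yet 0.89 ± 0.38 with TMM factors (edgeR adjusted p = 0.051). In the family, 7 of 13 tested members were higher with TMM factors, not far from the background of 43.7%, and 12 with valid reads (background 62.5%), and none was lower under either.

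mml-miR-181a-5p, known from lymphocyte and neuronal work, was at 906543 and 1043950 RPTM, and the nearest profile was lung with 233706 (2.89 ± 0.33, edgeR adjusted p = 9e-06). All 6 tested members of the miR-181 family were higher (background 43.7%), with a median fold change of 3.72, and lung was the highest other profile for all 6. Of the miR-99, miR-100 and miR-125 family, 8 of 10 tested members were higher with TMM factors and all 10 with valid reads (background 43.7% and 62.5%). mml-miR-99b-5p was at 155299 RPTM in the occipital lobe and 115653 in the spinal cord, against 3585 to 20138. mml-miR-143-3p, a smooth muscle miRNA, was among the 5 most abundant neural miRNAs because of the spinal cord, at 683533 RPTM against 103028 in the occipital lobe. It was lower than in the other tissues with TMM factors (-2.77 ± 0.71, edgeR adjusted p = 0.004) and not called with valid reads (adjusted p = 0.06). The other 2 families of ubiquitous miRNAs moved less: 1 of 4 tested miR-29 miRNAs was higher and 1 of 10 tested miR-30 miRNAs was lower, and with valid reads 4 and 5 were higher and none lower. Against the background of 43.7% and 62.5% higher, the miR-30 family was below it under both scalings.

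**Figure D3:**
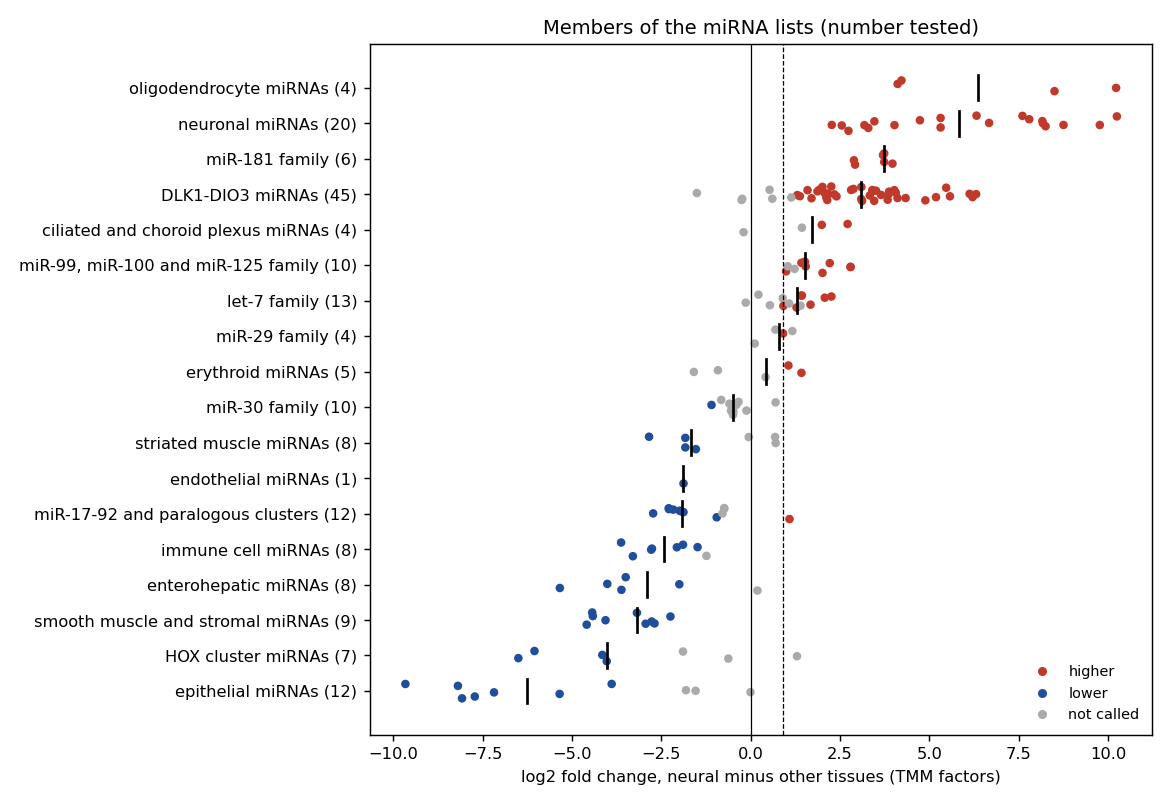
Fold changes (x axis, log2, neural minus other tissues, TMM factors) of the tested members of each miRNA list, 1 dot per miRNA, red for higher, blue for lower and grey for not called; the black bar is the median of the list and the dashed line is the median of all 371 tested miRNAs. All dots of the neuronal, oligodendrocyte and miR-181 lists are red, and the epithelial list has the lowest median, -6.27; 5 miRNAs without a usable error (2 enterohepatic, 2 epithelial and 1 striated muscle) are not drawn.

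The clearest losses were those of the miR-200 family, which holds epithelial cells in their state and is a marker of epithelium. Their sequences are shown because they share seed letters:
mml-miR-429-3p: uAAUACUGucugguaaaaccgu
mml-miR-200a-3p: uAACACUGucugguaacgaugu
mml-miR-141-3p as annotated: aACACUGUcugguaaagaugg
mml-miR-141-3p as read: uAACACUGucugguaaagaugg
The annotated start of mml-miR-141-3p was matched by 0.03% of its reads in the other tissues, while 99.4% began 1 base earlier, which gives it the seed of mml-miR-200a-3p. mml-miR-429-3p had 3 reads in each neural profile (1.30 and 1.25 RPTM) and 16.1 to 3185 RPTM elsewhere (-9.66 ± 0.73, edgeR adjusted p = 2.5e-07). mml-miR-200a-3p likewise had 3 reads in each, against 3.05 to 794 RPTM. mml-miR-141-3p was at 21.3 and 8.78 RPTM against 33.6 to 9354. mml-miR-141-5p had 0 reads in both neural profiles and 866 in the others, at least 56.9-fold lower with a limit of 3 reads over the pair. mml-miR-200a-5p had 1 read in the occipital lobe and 0 in the spinal cord. The pooled level of the other profiles was 225 times higher (95% exact counting interval 40.3 to 8902, counting error only). Muscle replicate 2 had the lowest other level of all 5.

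Of the whole epithelial list, 12 of 17 mature miRNAs were tested, 7 were lower under both scalings and none higher (background 24.3% lower). The median fold change was -6.27, or -5.59 with the 2 miRNAs without a neural read, mml-miR-141-5p and mml-miR-200c-3p, set to their limit. The 5 without a call were mml-miR-200c-3p and mml-miR-205-5p, for which the fit gave no usable error, and the 3 miRNAs of the miR-183 cluster, which is also made by sensory cells. That cluster differed within the neural pair: mml-miR-182-5p was at 1897 RPTM in the occipital lobe and 45109 in the spinal cord, and mml-miR-183-5p at 18.7 and 1208 RPTM, the latter above the highest other profile, 875.

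Stromal and smooth muscle miRNAs were lower as a group: all 9 tested members were lower with TMM factors and 6 with valid reads (background 24.3% and 12.4%). mml-miR-199a-3p, a miRNA of fibroblasts and mesenchyme, was at 382 RPTM in the occipital lobe and 855 in the spinal cord, against 3896 to 18527 elsewhere (-4.59 ± 0.55, edgeR adjusted p = 1.3e-05). mml-miR-199a-5p was at 29.99 and 82.4 against 209 to 1279, and mml-miR-214-3p, which lies within DNM3 like mir-199a-1, at 2.17 and 7.53 against 17.3 to 164. mml-miR-511-5p, within the macrophage mannose receptor gene MRC1, was at 0.87 and 3.35 RPTM against 6.65 to 108 (-4.98 ± 0.98, edgeR adjusted p = 0.00062). mml-miR-3614-5p, the last of the 10, had 0 and 4 reads, against 3.31 to 106 RPTM with liver highest. mml-miR-21-5p, abundant in most tissues and outside the naming rule, was at 5711 and 11942 RPTM, below all others at 50990 to 116308.

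Markers of blood and immune cells were measured beside these groups. Of 8 tested immune cell miRNAs, 7 were lower with TMM factors and 4 with valid reads (background 24.3% and 12.4%), and the summed level of the list was 6805 RPTM in the occipital lobe and 11283 in the spinal cord against 7904 to 25560 elsewhere. mml-miR-142-5p, a marker of all blood-derived cells, was at 99.1 RPTM in the occipital lobe and 247 in the spinal cord, against 277 to 2550 elsewhere. The erythroid mml-miR-451-5p was at 234 and 362 RPTM within the range of 46.1 to 5006 of the others, and the endothelial mml-miR-126-3p was lower with TMM factors and not called with valid reads. Of the 5 tested erythroid miRNAs 2 were higher, a share near the background of 43.7%, and none lower. Both were miR-486-3p sequences, annotated at 2 loci. With valid reads 3 of the 5 were higher (background 62.5%). The summed level of the list, 277843 and 172373 RPTM, lay within the 9415 to 824095 of the other profiles. The part of blood, vessels and stroma in the neural differences was not tested.

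miRNAs of the HOX clusters, which follow position along the body axis, separated the neural pair. mml-miR-10b-5p was at 8946 RPTM in the occipital lobe and 379494 in the spinal cord, against 22211 to 3705810 in the other tissues, and mml-miR-10a-5p at 1146 and 70444 against 113791 to 480356. Of 7 tested members, 4 were lower under each scaling (background 24.3% and 12.4%) and 1 was higher with valid reads (background 62.5%). Among the lower ones was mml-miR-196a-5p, at 2.17 and 3.76 RPTM in the neural pair and 0.81 (liver) to 2584 (muscle) elsewhere. The miRNAs of specialised organs followed their tissues. Of 8 tested enterohepatic miRNAs, 5 were lower and 4 with valid reads (background 24.3% and 12.4%), and mml-miR-122a-5p, the liver miRNA, was at 1.74 and 1.67 RPTM against 7320 in liver. Of 8 tested striated muscle miRNAs, 4 were lower with TMM factors and none with valid reads (background 24.3% and 12.4%), where mml-miR-499-5p was higher. The proliferation-linked miR-17-92 and paralogous clusters had 8 of 12 tested members lower and 1 higher with TMM factors, but 1 lower and 1 higher with valid reads. The background was 24.3% lower and 43.7% higher with TMM factors, and 12.4% and 62.5% with valid reads. Of 4 tested miRNAs of ciliated cells and choroid plexus, 2 were higher, near the background of 43.7%, and mml-miR-204-5p was at 19591 and 15956 RPTM, above 8 of the others, while the kidney profiles were at 29724 and 19045. No miRNA of the placental C19MC cluster passed the filter.

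When reads were summed over mature miRNAs with the same seed, 135 of 298 seeds (45.3%) were higher and 71 (23.8%) lower in edgeR with TMM factors. The seed GAGGUAG of let-7 took 42.5% of the miRNA reads in the occipital lobe and 28.7% in the spinal cord, against 5.18% to 21.1% elsewhere, but its fold change of 0.46 ± 0.40 was not called (adjusted p = 0.32). ACAUUCA of miR-181 took 18.1% and 20.2%, against 0.51% to 5.28% (2.86 ± 0.32, called under both scalings). CUUUGGU of miR-9 took 6.84% and 4.51%, against at most 0.02%. The seeds with the largest gains and losses held a single tested miRNA and repeated its values. Of 47 seeds with at least 2 tested members, all members were higher in 12 and all were lower in 8, while 2 seeds held calls in both directions. In one of them, GAUUGUC, mml-miR-219-5p was higher and mml-miR-508-3p was lower, at 3.04 and 10.9 RPTM against 4.44 to 210 in the other tissues (not called with valid reads).

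The ends of the reads set the seed that is present, and 3 of the neural markers had many reads off their annotated start. mml-miR-124a-3p began at the annotated base in 28.9% of its 24179 reads in the occipital lobe and 29.4% of its 7837 reads in the spinal cord, and 1 base later in 70.9% and 70.6%. mml-miR-219-2-3p began 1 base earlier than annotated in 43.3% and 42.4% of its reads, and at the annotated base in 56.4% and 57.3%. The 2 forms of each miRNA have different seeds:
mml-miR-124a-3p, annotated start: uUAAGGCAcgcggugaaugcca
mml-miR-124a-3p, 1 base later: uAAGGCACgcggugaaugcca
mml-miR-219-2-3p, annotated start: aGAAUUGUggcuggacaucugu
mml-miR-219-2-3p, 1 base earlier: gAGAAUUGuggcuggacaucugu
By contrast, mml-miR-9-5p kept its annotated start in 97.6% and 96.4% of its reads. mml-miR-219-5p did so in 100% and 99.8%. mml-miR-9-3p began 1 base later in 27.2% (95% Wilson interval 25.1 to 29.5) of its reads in the occipital lobe and 22.4% (20.6 to 24.2) in the spinal cord. These intervals do not overlap, but they cover counting error only, with 1 library of each tissue. In the other tissues pooled, 73.9% of the 92 reads of mml-miR-124a-3p began 1 base later and 37.97% of the 79 reads of mml-miR-219-2-3p 1 base earlier.

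A change between tissues in the share of reads off the annotated 5′ start was rare. This share misses a switch between shifted starts. For mml-miR-106b-3p the most frequent start in pooled reads was 1 base later than annotated in the neural pair and 1 base earlier elsewhere. Such switches, also seen for other miRNAs, were not tested. Of the miRNAs with at least 100 reads in every profile, 4 (3.23%) differed in the shifted share in limma. The share of reads with a shifted 5′ end was lower in the neural tissues for mml-miR-409-3p, at 18.6% in the occipital lobe and 29.0% in the spinal cord against 32.95% to 49.3%, and for mml-miR-181b-5p, at 0.60% and 0.78% against 1.18% to 2.25%. It was higher for mml-let-7f-5p (0.74% and 0.69% against 0.27% to 0.46%) and mml-let-7a-5p (0.46% and 0.71% against 0.19% to 0.50%). All 4 adjusted p-values were 0.04, and all 4 calls were lost when any of 6 profiles, 2 each of large intestine, small intestine and muscle, or the occipital lobe was left out. The mean read length differed for 14 of the same miRNAs (11.3%), 5 longer and 9 shorter, by at most 0.43 nt. mml-miR-320a-3p had the largest difference, with a mean of 21.5 nt in the occipital lobe and 21.6 in the spinal cord against 21.8 to 22.2 (limma adjusted p = 0.013). No length call was left without large intestine replicate 1 or without the occipital lobe.

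The ratio of the arms was tested for 105 hairpins with at least 50 reads in every profile. In limma, 8 (7.62%) had more 5p and 7 (6.67%) more 3p in the neural tissues. In most of them the minor arm was close to the limit of detection. mml-mir-103-1 and mml-mir-497 had 0 reads of the minor arm in all 12 profiles, so that their ratio followed the reads of the other arm alone. mml-mir-598 was called toward 3p although its 5p arm had 5 reads in each neural profile and 0 elsewhere, since the pseudocount of 1 read sets the ratio at a count of 0. mml-mir-128a, called toward 3p, was better covered. Its 5p share was 1.45% in the occipital lobe and 2.09% in the spinal cord, and 0.80% to 17.2% in the others. Both muscle profiles (0.80% and 1.03%) lay below the neural pair. mml-mir-128b, whose 3p arm shares reads with that of mml-mir-128a, was called the other way, toward 5p. Its 5p share was 1.68% and 1.57% in the pair, against 0% to 2.04%. The 2 calls are not independent and give no common direction for miR-128. The 5p share of mml-mir-194-1 was 94.2% and 92.4% against 95.9% to 99.2%. mml-mir-101-1 had 0.30% and 0.17% of 5p against 0.04% to 0.15%. The only hairpin whose dominant arm differed between all neural and all other profiles was mml-miR-1307, looked up after the values were seen: 5p held 51.4% and 51.1% of the reads in the neural pair and 5.5% to 49.3% elsewhere (limma adjusted p = 0.11).

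Adenosine-to-inosine (A-to-I) editing by ADAR enzymes, which is known to be frequent in brain RNA, is read as G at an annotated A. A site was taken as a candidate with at least 10 edited reads and a level of at least 5% in at least 1 profile. There were 25 such sites, and 8 sites that did not repeat the reads of another one had at least 50 reads in every profile. Positions are counted from 1 at the 5′ end of the annotated miRNA. At 2 of the 8 sites (25%) both neural profiles were above all others. The editing level of mml-miR-411-5p at position 5, in the seed, was 12.9% (95% Wilson interval 12.7 to 13.1) in the occipital lobe and 17.8% (17.5 to 18.1) in the spinal cord, against 3.35% to 11.1%. Of the exact reads of mml-miR-411-5p in the pair, 50.3% and 49.6% began 1 base before the annotated start. Its annotated sequence is:
mml-miR-411-5p: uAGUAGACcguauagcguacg
mml-miR-378a-3p at position 16 was at 14.7% (14.2 to 15.2) and 8.53% (7.99 to 9.10) against 0.33% to 4.31%, and these reads also match close relatives of miR-378a. Its reads with G numbered 2672 and 828 in the neural pair and 228 to 2042 elsewhere. All reads over the site differed more, with 18186 and 9712 against 12558 to 614468. Lung, with 12558 reads over the site, was at 4.31%. The part of the abundance of the miRNA in the level was not tested.

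The exact two-sided permutation p was 0.0303 for these 2 sites, the smallest that 66 arrangements of 2 among 12 profiles can give, and 0.12 after adjustment over 8 sites, so neither passed. mml-miR-497-5p at position 2 (10.9% and 11.6%) and mml-miR-99a-5p at position 1 (7.46% and 4.94%) were likewise high. However, lung reached 11.5% and 6.92%, between the neural values at each site. The 9 remaining profiles did not exceed 3.04% and 1.26% (exact permutation p = 0.0606 for each). mml-miR-381-3p at position 4 was unequal in the pair, at 1.97% and 5.04%, and the other profiles ranged from 1.22% to 4.84%. At mml-miR-151-2-3p position 3 over 99% of the reads had G in every profile. Of the sites with too few reads elsewhere for a test, mml-miR-99b-3p at position 2 was at 17.1% of 1017 reads and 17.0% of 654 reads in the neural pair, and at 2.40% of the pooled reads of the other tissues. Of its exact reads in the pair, 97.9% and 98.0% began 1 base before the annotated start. mml-miR-376a-1-5p at position 3 was at 16.8% of 137 and 15.8% of 177 reads, against 2.38% of only 42 pooled other reads. That share is 1 edited read, among the 6 reads of small intestine 1 (16.7%). Not all such sites went this way. mml-miR-548h-13-5p at position 1 was at 22.2% of 9 and 14.3% of 14 reads, against 71.2% of the pooled other reads. mml-miR-548p-9-5p at position 7 was at 2.31% of 130 and 39.2% of 51 reads, against 24.6%. These intervals and shares cover counting error only.

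**Figure D4:**
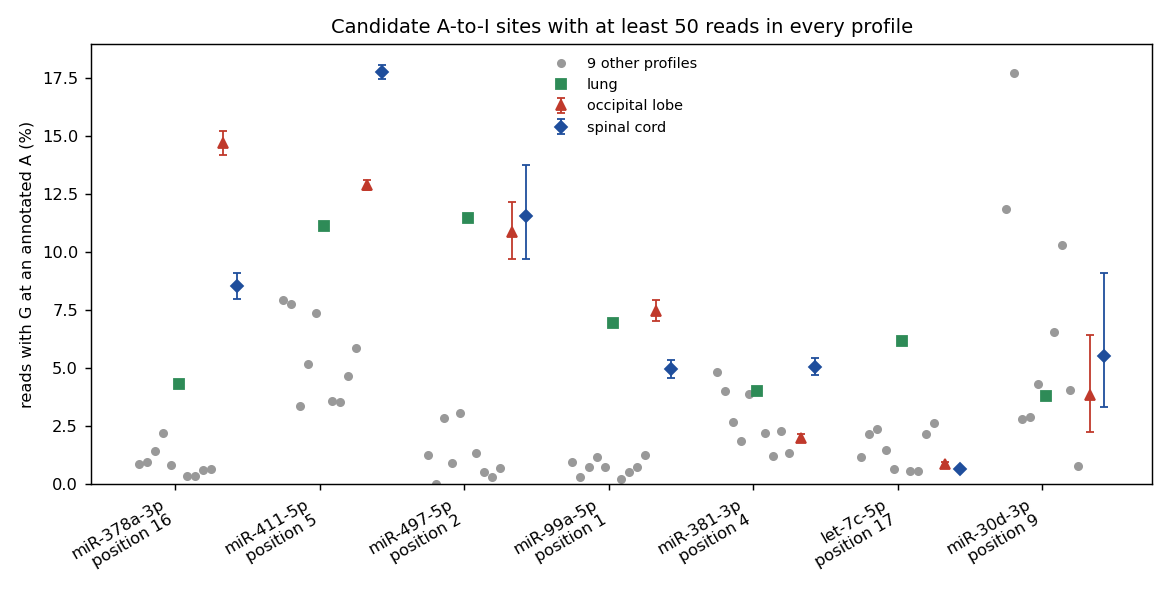
Percent of reads with G at an annotated A (y axis) for the 7 tested candidate sites below 50% in the neural pair. Grey dots are 9 other profiles, green squares lung, red triangles the occipital lobe and blue diamonds the spinal cord with 95% Wilson intervals; at mml-miR-497-5p position 2 lung (11.5%) lies between the neural values (10.9% and 11.6%).

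The miRNA reads were spread more evenly in the neural tissues. The effective number of miRNAs, the exponential of the Shannon entropy of the read shares, was 19.6 in the occipital lobe and 22.4 in the spinal cord, against 5.54 to 15.3 in the others. The most abundant miRNA took 22.1% and 17.9% of the miRNA reads, against 22.6% to 58.8%, and the 10 most abundant took 77.1% and 73.5% against 81.9% to 93.3%. At least 10 reads were found for 373 and 439 mature sequences, compared with 286 to 339. In all 4 measures the neural pair lay outside the range of the other profiles, with an exact permutation p of 0.0303, the smallest possible, and of 0.0606 after adjustment over 8 measures, which does not pass. The share of valid reads assigned to miRNAs was 56.2% and 57.9% within 35.9% to 68.4%, and the median levels of non-templated 3′ A tails (3.74% and 3.30% of reads) and U tails (1.42% and 1.74%) also lay within the other profiles. As a description, the miRNAs called higher took 44.2% and 40.3% of the miRNA reads in the neural pair and 1.60% to 9.69% elsewhere, while those called lower took 3.62% and 15.1% against 21.6% to 85.7%.

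**Figure D5:**
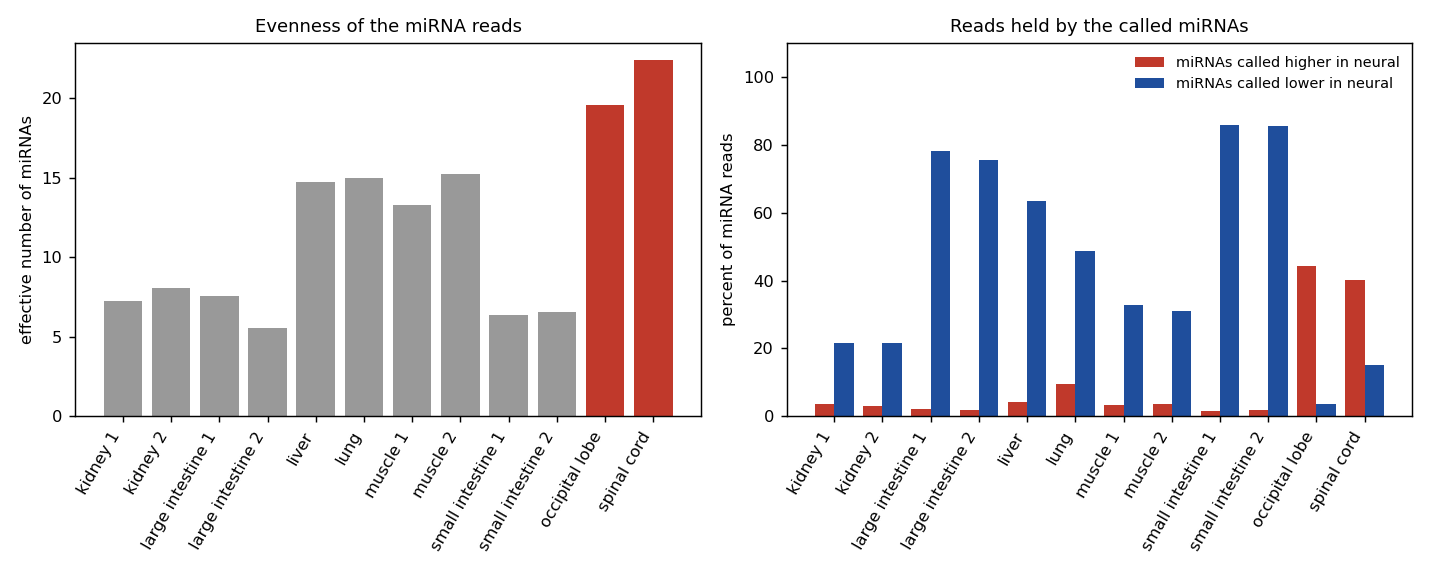
Left, effective number of miRNAs in each profile (y axis), with the neural profiles in red at 19.6 and 22.4. Right, percent of the miRNA reads (y axis) held by the 162 miRNAs called higher (red) and the 90 called lower (blue) in the neural tissues; these shares come from the calls themselves and are a description.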

How the data were processed

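Small RNAs of 12 tissue samples were sequenced. The authors kept reads of high base quality, removed the 3′ adapter and deposited, for each profile, counts of unique sequences, 22118095 to 25579064 valid reads in all. Reads of 18 nt or longer were assigned here to a mature miRNA when they matched its pre-miRNA exactly and both ends lay within 2 nt of the annotated ends. The annotation was the part of the study's list that was read here, 832 pre-miRNAs with 1219 distinct mature sequences (build Mmul_8.0.1), and other miRNAs were not counted. Arms of 7 hairpins with swapped names were named by position. Of 773 mature sequences with a read, 371 passed the filter (mean RPTM 5 or more, SD 1 or more) and were tested by edgeR 4.0.16 (R 4.3.3) in 7 groups, with the neural pair as 1 group. limma 3.58.1, DESeq2 1.42.0 and scipy 1.17.1 served the other tests and alternatives. The scripts were tested on simulated data. The tissues compared and the miRNA lists were chosen with earlier results of these data known. Named were the markers, the 10 largest calls per direction with separated groups, the 5 most abundant neural miRNAs, up to 4 abundant members of each list and up to 5 calls of each other test, and further miRNAs were named after their values were seen.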

Additional observations from a re-analysis of the deposited data

How the results depend on the processing

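The higher and lower counts (162 and 90) became 150 and 106 with RLE factors, 150 and 105 with TMM factors computed without the top miRNA of each profile, 142 and 115 with DESeq2, 225 and 64 with limma on log2(RPTM + 1), and 145 and 89 with both ends within 1 nt. With valid reads 46 were lower, with 2 groups 109 were higher and 53 lower, and fewer miRNAs tested gave 92 higher (mean of at least 50 RPTM) and 106 higher (identical reads only). Leaving out a profile gave 137 to 164 higher and 82 to 96 lower, the lone neural profile being assumed to vary like the other groups. For seeds, 37 were lower with valid reads, and leaving out a profile gave 109 to 136 higher and 68 to 76 lower. Arm ratio calls (8 and 7) were 15 and 16 with a pseudocount of 5, and 5 and 4 with at least 200 reads, and 2 to 9 and 5 to 9 without a profile, with 2 toward 5p without the occipital lobe. The 5′ end calls (2 and 2) ranged from 0 to 3 and 0 to 2 without a profile, with 5 less shifted at 500 reads or more. The length calls (5 longer and 9 shorter) ranged from 0 to 4 and from 0 to 9, with 3 longer at 500 reads or more. Without the top miRNA of each profile, the difference in the top share was -8.14 percentage points (exact permutation p = 0.58) instead of -22.2. Without a profile, the difference ranged from 9.60 to 12.4 in effective number, from -24.4 to -20.2 in the top share, from -14.6 to -10.9 in the share of the top 10 and from 64.3 to 130 in sequences with 10 reads; without a neural profile the exact test cannot reach 0.05. It ranged from -1.79 to 1.83 for the share assigned, from 3.82 to 10.2 for reads of 21 to 23 nt, from -1.07 to -0.62 for A tails and from -0.53 to -0.21 for U tails. Of the 24 tested miRNAs recomputed under every alternative (markers, largest calls and most abundant), only mml-let-7f-5p changed sign: -0.13 with RLE factors, -0.14 with TMM without the top miRNAs, -0.13 with DESeq2, -0.018 without a filter, -0.073 at a mean of at least 50 RPTM, -0.076 with identical reads, and -0.28 to 0.52 without a profile, the lowest without the occipital lobe. The other miRNAs named in the text were recomputed singly with valid reads only, where mml-miR-183-5p went from -0.0083 to 1.38, mml-miR-493-5p from -0.24 to 1.04 and mml-miR-493-3p from -0.26 to 0.9996, none of them called. The cause of these changes was not tested. The 2 editing calls before adjustment stayed at 2 with minima of 20 and 200 reads. No paired analysis was possible because the labels do not tie the profiles to the animals. With 1 library per neural tissue, a difference between cortex and cord has no error.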
